A study of Mus musculus with 8 samples.

Results

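The mRNAs of 10 core glycolytic enzymes were examined in the polysomal (P) and non-polysomal (NP) RNA of maturing mouse oocytes. The genes were Hk1, Gpi1, Pfkl, Pfkm, Pfkp, Aldoa, Gapdh, Pgk1, Eno1 and Pkm, and they were found by exact gene symbol. Each symbol had its own row among the 25574 genes of the FPKM table, where FPKM stands for fragments per kilobase of gene and per mapped library size. A gene was tested where the mean of NP or the mean of P was above 0.1 FPKM. This held for 14292 of all genes and for 9 of the 10, the exception being Hk1.

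The 8 libraries were 4 NP and 4 P libraries, numbered 1 to 4 in each dataset, and they were made to show which stored maternal mRNAs sit on polysomes shortly after the nuclear envelope has broken down (NEBD). All came from CD1 females, 8 weeks of age, primed with 5 IU of pregnant mare serum gonadotropin 46 h earlier, with no genetic change. Fully grown oocytes were collected under 100 µM IBMX, a phosphodiesterase inhibitor that holds them in prophase, freed of cumulus cells, and left to mature for 180 min without it. Both datasets also share 10 min in 0.1 mg/ml cycloheximide, which stalls ribosomes on the mRNA. Lysates of 200 oocytes were spun through sucrose gradients and cut into 10 fractions, of which fractions 2 to 5 gave NP and fractions 6 to 10 gave P. Fraction 1, the top of the gradient, is in neither dataset.

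Several facts of the libraries bear on every value below. The pooled RNA was rRNA-depleted, primed with random and oligo(dT) primers and amplified before sequencing, so levels describe amplified cDNA. FPKM values of a gene are multiples of a step, and from these steps the scaling number of each library was worked out. It ranged from 1299377 to 7594637 over the NP libraries, and for P from 2677946 to 4699328. On a gene of 1 kb, 1 step was worth 0.132 to 0.770 FPKM in NP and 0.213 to 0.373 in P, so values under about 1 FPKM rest on few steps unless the gene is long. FPKM is a share of its own library. A smaller amount of a transcript in P and a larger amount of other RNA there cannot be told apart. Genes above 0 numbered 11703 to 13753 in the NP libraries and 9139 to 11339 in the P libraries. The median log2(FPKM + 1) of the tested genes was 2.14 to 2.71 in NP and 1.04 to 2.01 in P. The cause of this gap was not tested.

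The labelled cell type was checked against marker lists. All 12 oocyte markers were above 10 FPKM in at least 1 dataset, with summed levels of 6752 to 13588 FPKM in NP and 8646 to 38828 in P. Of 16 cumulus and granulosa cell markers, 6 were at 0 in every library (Amhr2, Inhba, Foxl2, Ptx3, Has2 and Fst), and the list summed to 15.3 to 94.4 FPKM in NP and 3.75 to 64.0 in P, ranges that overlap. Cyp19a1 was at 0.190 to 75.2 FPKM over the 8 libraries and Nr5a2 at 0.487 to 61.4. Ptprc, Hba-a1 and Col1a1, of the 7 measured blood and stroma markers, were also at 0 throughout, while Pecam1 was at 6.36 to 77.7 FPKM in all 8 libraries and Cyp11a1 reached 46.4 in NP replicate 4 and 17.9 in P replicate 4. That list summed to 12.7 to 63.7 FPKM in NP and 6.36 to 77.7 in P.

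Glycolysis splits glucose into pyruvate in 10 enzymatic steps. Hexokinase, phosphofructokinase and pyruvate kinase catalyse the steps that are practically irreversible in the cell, and phosphofructokinase is the classical point of control. Oocytes are known to use glucose poorly by themselves. The surrounding cumulus cells carry out glycolysis and hand pyruvate and lactate over to the oocyte through gap junctions and transporters. A fully grown oocyte makes almost no new RNA, so whether a stored mRNA is on ribosomes decides much of what protein is made.

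Phosphofructokinase is encoded by 3 genes that share ancestry and form mixed tetramers: Pfkl (the liver type), Pfkm (the muscle type) and Pfkp (the platelet type). Their isozyme shares are compared below, which rests on reads being assigned to the right gene. The middle 60 bases of the longest coding exon, 190 bp in each, show how far they have diverged. Lines give the sense strand 5′ to 3′ from the GRCm38 reference, at chr10:78001376-78001435 (minus strand) for Pfkl, chr15:98120856-98120915 (plus strand) for Pfkm and chr13:6621972-6622031 (minus strand) for Pfkp. Capitals mark the 24 positions at which the 3 genes are not all alike.
Pfkl: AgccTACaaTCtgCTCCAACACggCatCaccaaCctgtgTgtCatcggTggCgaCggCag
Pfkm: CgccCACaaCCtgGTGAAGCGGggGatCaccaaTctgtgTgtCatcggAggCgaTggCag
Pfkp: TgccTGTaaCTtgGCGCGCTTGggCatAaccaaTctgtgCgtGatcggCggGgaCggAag
In this stretch Pfkl and Pfkm share 47 of 60 bases, Pfkl and Pfkp share 40, and Pfkm and Pfkp share 41. None of the 3 stretches has a further exact match on the reference chromosomes.

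The opposite case is Gapdh, whose mRNA has been copied into the genome many times. The same kind of stretch is shown for Aldoa (chr7:126797413-126797472, minus strand, 212 bp exon), found once in the genome, and for Gapdh (chr6:125163258-125163317, minus strand, 298 bp exon), found exactly 13 times.
Aldoa: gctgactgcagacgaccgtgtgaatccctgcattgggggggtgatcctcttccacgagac
Gapdh: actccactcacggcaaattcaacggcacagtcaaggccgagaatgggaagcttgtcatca
Over the whole reference transcript, near-identical copies (at least 97% identity over at least 100 bases) elsewhere in the genome lay at 38 loci for Gapdh and covered 88.6% of its bases. Copies at 3 loci covered 95.7% of Pgk1, copies at 2 loci covered 85.6% of Eno1 and 49.7% of Gpi1, and 1 locus covered 91.4% of Pkm. Hk1, Pfkl, Pfkm, Pfkp and Aldoa had none. The sources used here do not give how reads that match several loci were counted, so the levels of the 5 genes with copies are uncertain.

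**Figure D1:**
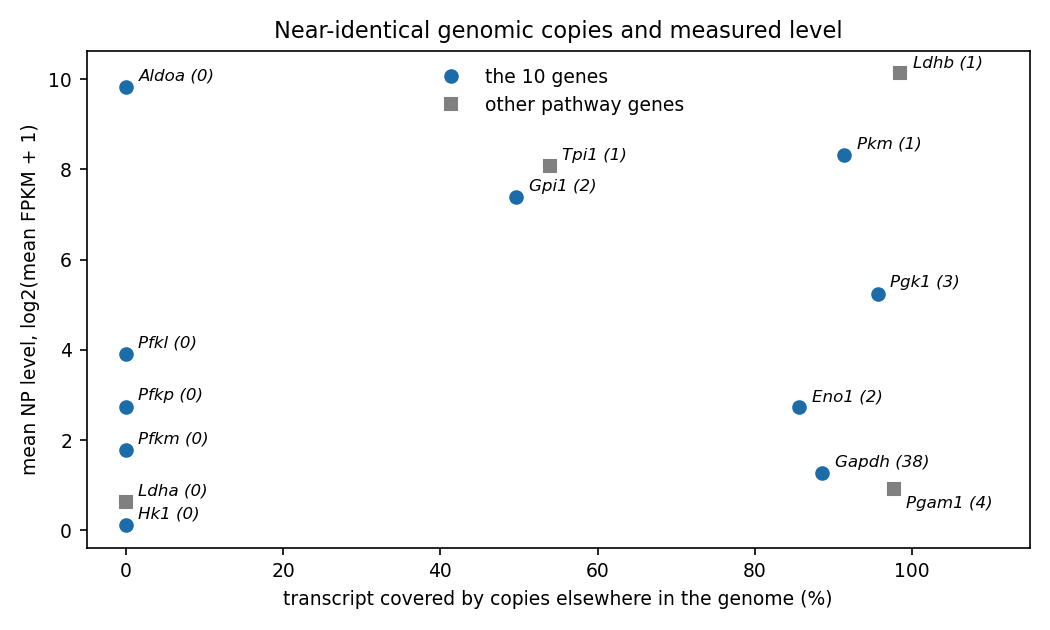
The horizontal axis is the percentage of each gene's reference transcript that near-identical copies elsewhere in the genome cover, and the vertical axis is log2(mean FPKM + 1) over the 4 NP libraries; circles are the 10 enzymes, squares are other genes of the pathway, and the number of loci with a copy stands in brackets. Genes with over 80% of their transcript in copies range from Ldhb and Pkm at the top to Gapdh and Pgam1 at the bottom, and the plotted genes without copies range from Aldoa to Hk1.

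The mRNAs fell into an abundant and a scarce group. Aldoa, Pkm, Gpi1 and Pgk1 had means of 36.9 to 903 FPKM in NP and 63.7 to 232 in P, whereas Hk1, Pfkl, Pfkm, Pfkp, Eno1 and Gapdh stayed at a mean below 14 FPKM in NP and below 5 in P. In P, 4 of the 10 genes had a mean above 50 FPKM, a level that 12.9% of all genes tested passed. In NP it was 3 of the 10, beside 14.6% of all genes. In NP the order was Aldoa, Pkm, Gpi1 and Pgk1, with each gene above the next in 4 of 4 libraries. In P the order was Pkm, Aldoa, Gpi1 and Pgk1, with each gene above the next in only 3 of 4 libraries, so that neighbours there did not separate. Pgk1 was above Pfkl in 4 of 4 P libraries and in 3 of 4 NP libraries. Among the scarce genes, no neighbours in the order of means were in that order in 4 of 4 libraries of a dataset, ties at 0 included.

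**Figure D2:**
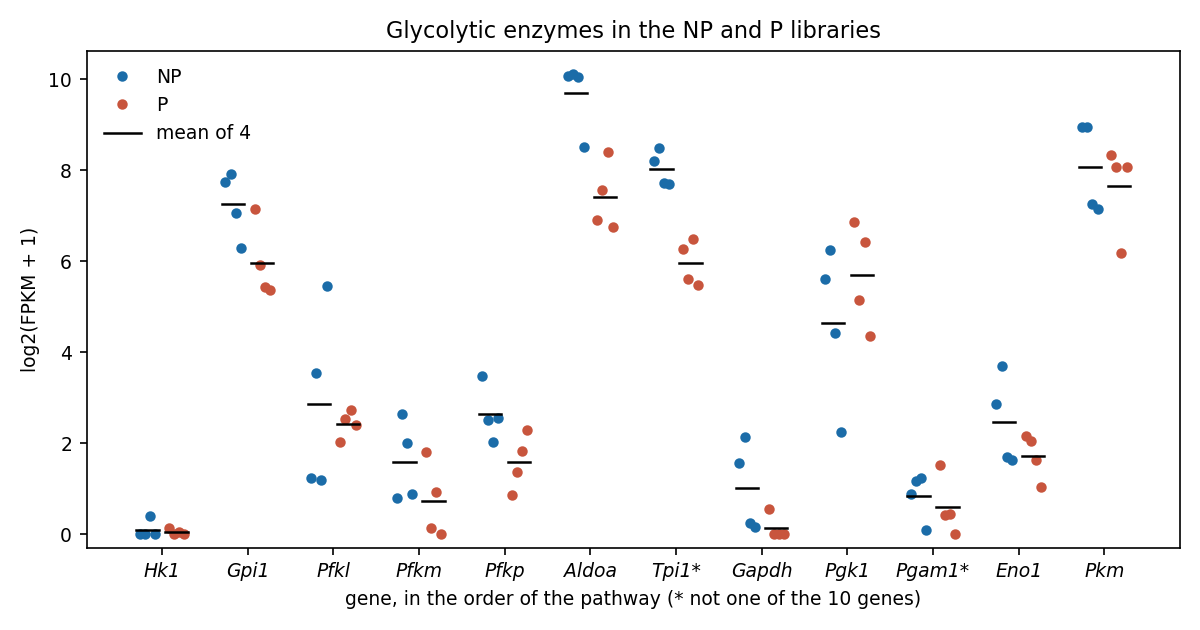
Points are the 8 libraries (4 NP in blue, 4 P in red), black lines are the means of the 4 plotted values, and the vertical axis is log2(FPKM + 1), with genes in pathway order and Tpi1 and Pgam1 added for the steps that the 10 genes do not cover. Aldoa is the only one of the 10 enzymes for which all NP points lie above all P points, and Hk1, Gapdh and Pgam1 lie near the bottom in both datasets.

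No difference between P and NP passed the test for any of the 9 genes tested. The test was limma on log2(FPKM + 1), 2-sided, with Benjamini-Hochberg adjustment over the 14292 genes and a threshold of 0.1, and it called 3 genes in all, 0.021%. At an unadjusted p below 0.05, 1 of the 9 (Aldoa) was higher in NP and 0 were higher in P. Of all genes, 9.47% were higher in NP and 0.476% higher in P at that level. With the replicate number as a block, 2 of the 9 (Aldoa and Gpi1) were below that level, both higher in NP. Of the 14292 genes, 1618 were then higher in NP and 116 higher in P. Of the 9, 8 had a negative log2 fold change of P over NP, and so did 71.4% of all genes. Their median log2 fold change was -0.86, beside -0.39 over all genes, and 8 of the 9 lay below the median gene. Without NP replicate 2 these medians were -0.43 and -0.39, and 5 of the 10 enzymes then tested lay below the median gene. With a pseudocount of 0.1 the medians were -1.30 and -0.83. With a filter at a mean of 1 FPKM they were -0.86 and -0.58. Under either of these settings, 6 of the 9 lay below the median gene. Every NP library was above every P library for 1 of the 10 (Aldoa), as for 5.92% of all genes tested, and the reverse held for 0 of the 10 and for 0.357% of all genes. The summed level of the 10 genes was 638 to 1958 FPKM in NP and 443 to 708 in P, or 0.111% to 0.335% and 0.0694% to 0.140% of all FPKM. These ranges overlapped through NP replicate 4, the lowest NP library for 6 of the 10 genes.

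Fold changes moved with the scaling between libraries. When each library was centred on its median gene, the median log2 fold change of all genes went from -0.39 to 0.57. A negative value was kept by 3 of the 9 enzymes (Aldoa, Gpi1 and Pfkp), beside 3857 of the 14292 genes. This centring adds the same amount to the log2 fold change of every gene, and 8 of the 9 still lay below the median gene. At an unadjusted limma p below 0.05, 2719 of all genes were then higher in P and 177 higher in NP. Quantile normalization put the median gene at -0.02. It left 6 of the 9 negative, beside 7296 of the 14292 genes, and 6 of the 9 below the median gene. Aldoa, Gpi1, Pfkp and Pgk1 kept their sign under every alternative tried, and Pkm, Eno1, Gapdh, Pfkl and Pfkm turned under at least 1 of them.

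**Figure D3:**
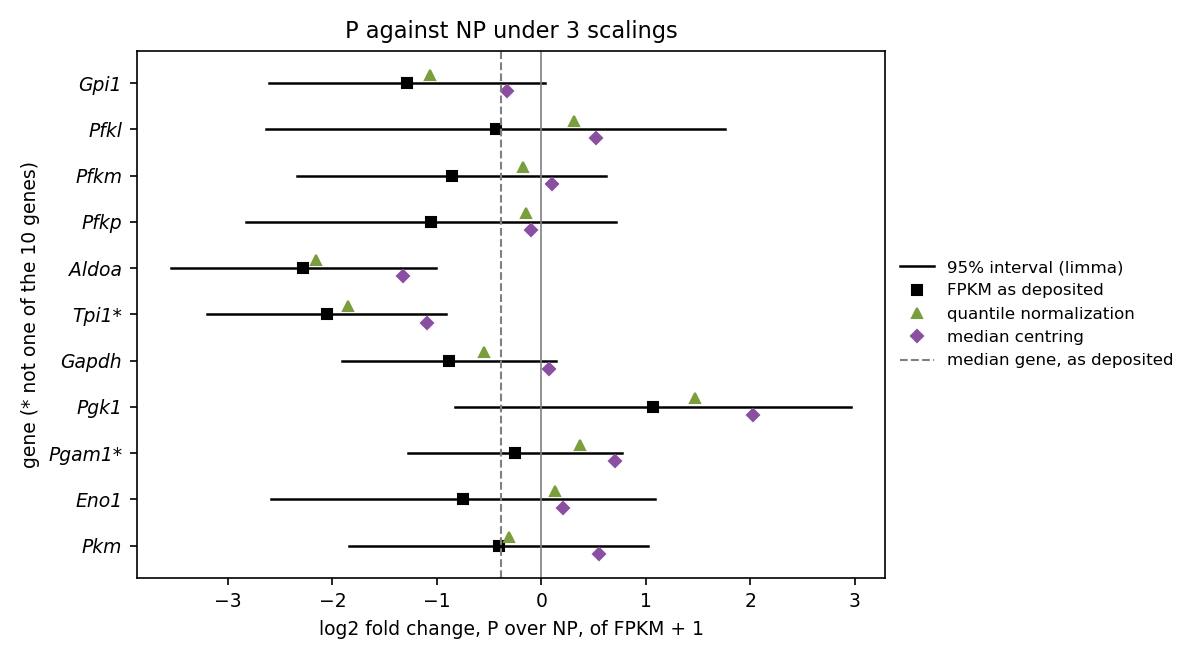
Black squares are limma log2 fold changes of P over NP from the deposited FPKM with their 95% intervals, green triangles and purple diamonds are the same after quantile normalization and after median centring, and the dashed line is the median gene at -0.39. Aldoa and Tpi1 stay left of 0 and Pgk1 stays right of 0 under all 3 scalings, while Eno1, Pfkl, Pfkm, Gapdh and Pkm cross 0 under at least 1.

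Hexokinase mRNA, for the first step of the pathway, was uneven between libraries. Hk1 (hexokinase 1, chr10:62268855-62379908), which phosphorylates glucose and is bound to mitochondria in many tissues, was listed at 0 in 5 of 8 libraries. Its values were 0, 0, 0.322 and 0 FPKM in NP replicates 1 to 4 and 0.0998, 0, 0.0264 and 0 FPKM in P replicates 1 to 4. These correspond to 20 steps in NP replicate 3, 4 steps in P replicate 1 and 1 step in P replicate 3. Hk2, the inducible hexokinase, had 0, 0, 6.03 and 4.21 FPKM in NP and 0.285, 0.523, 10.9 and 0 in P. Its values correspond to 262 steps in NP replicate 3, 191 in NP replicate 4 and 289 in P replicate 3. In P replicates 1 and 2 they correspond to 8 and 10 steps. Hk3 and Hkdc1 were at 0 throughout. All 5 hexokinase genes together summed to at most 6.53 FPKM in any NP library and 10.9 in any P library.

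Gpi1 (glucose-6-phosphate isomerase, chr7:34202122-34230289) makes fructose 6-phosphate. Its values were 214, 241, 132 and 77.7 FPKM in NP replicates 1 to 4 and 140, 59.8, 42.2 and 40.4 FPKM in P replicates 1 to 4. Only P replicate 1 was above any NP library. The mean was 166 ± 75.1 FPKM in NP and 70.7 ± 47.3 in P (SD, n = 4 each), a 2.35-fold difference of means. The limma log2 fold change of -1.29 (SE 0.62, adjusted p = 0.511) did not pass the threshold, and it was -0.33 after median centring.

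Phosphofructokinase, which commits the sugar to glycolysis, was present at low levels from all 3 genes. Pfkl (chr10:77986947-78010083) had 1.35, 10.7, 1.28 and 42.6 FPKM in NP replicates 1 to 4 and 3.05, 4.76, 5.63 and 4.25 in P replicates 1 to 4. The P libraries lay close together inside the wide NP range, and the NP mean of 14.0 ± 19.6 (SD, n = 4) was set by replicate 4. The limma log2 fold change was -0.44 (SE 1.02, adjusted p = 0.862) and became 0.43 without NP replicate 4, 0.32 with quantile normalization and 0.52 with median centring.

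Pfkp (chr13:6579768-6648777) had 10.1, 4.67, 3.07 and 4.91 FPKM in NP and 0.815, 1.56, 2.54 and 3.90 in P, in the order of the replicates. Only P replicate 4 was above any NP library. Pfkm (chr15:98092589-98132447) had 0.742, 5.21, 3.02 and 0.846 FPKM in NP and 2.52, 0.105, 0.913 and 0 in P, and the datasets overlapped. The log2 fold changes were -1.06 for Pfkp (SE 0.83, adjusted p = 0.649) and -0.86 for Pfkm (SE 0.69, adjusted p = 0.655), the latter 0.10 under median centring. Both genes share bases with a gene on the other strand that was measured at a higher level. Pitrm1 shares 372 bp with Pfkp and was at a mean of 38.9 FPKM in NP and 21.7 in P, and Senp1 shares 981 bp with Pfkm and was at 76.6 and 61.4 FPKM. According to the paper, libraries were made from amplified cDNA with a DNA library kit, and no step that keeps the strand is described. Reads of either pair can thus not be told apart in the shared bases.

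The share of each phosphofructokinase gene varied widely between libraries. The 3 genes together gave 7.37 to 48.4 FPKM in NP and 6.38 to 9.08 in P. Pfkl was the most abundant of them in 4 of 4 P libraries and in 2 of 4 NP libraries, with Pfkp leading in the other NP libraries. Pfkl made up 11.1, 52.0, 17.4 and 88.1% of the sum in NP replicates 1 to 4, and 47.8, 74.1, 62.0 and 52.2% in P replicates 1 to 4. The means were 42.1 ± 35.5% and 59.0 ± 11.7% (SD, n = 4 each), and the exact permutation test over the 70 assignments gave p = 0.371 (2-sided, 0.686 adjusted over the 3 shares). Pfkm held 18.5 ± 18.1% in NP and 12.8 ± 18.3% in P, and Pfkp held 39.3 ± 31.8% and 28.2 ± 14.6% (SD, n = 4 each), with an exact permutation p of 0.686 for either. The smallest p that 4 against 4 libraries can give in this test is 0.029. No difference in isozyme shares could be shown with this spread. A share within a library does not depend on the scaling between libraries. It can depend on the gene lengths behind FPKM, which could not be recovered for these genes. Merged exons span 6675 bp for Pfkl, 3340 for Pfkm and 13401 for Pfkp. Their reference transcripts span 3730, 2879 and 4145 bp. In P replicate 4, Pfkl led Pfkp by only 52.2 to 47.8%. A share can also depend on reads in the bases that Pfkp and Pfkm share with Pitrm1 and Senp1. The part of lengths and shared bases was not tested.

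**Figure D4:**
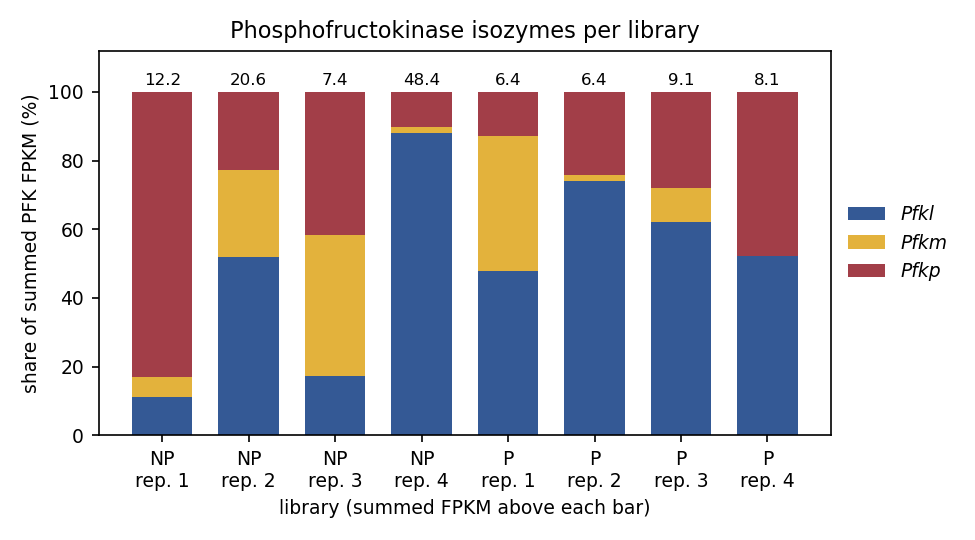
Each bar is 1 library and shows the percentage of the summed FPKM of Pfkl, Pfkm and Pfkp that each gene contributed, with the summed FPKM above the bar. Pfkl is the largest part of every P bar, while the NP bars run from 11.1% Pfkl in replicate 1 to 88.1% in replicate 4.

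Aldoa (aldolase A, chr7:126795234-126800751), which splits fructose 1,6-bisphosphate into triose phosphates, was the most abundant of the 10 mRNAs in NP. Its values were 1073, 1113, 1061 and 365 FPKM in NP replicates 1 to 4 and 120, 189, 338 and 107 FPKM in P replicates 1 to 4. The datasets did not overlap, although NP replicate 4 and P replicate 3 came close to each other. The mean was 903 ± 359 FPKM in NP and 188 ± 106 in P (SD, n = 4 each), which is 4.79-fold lower in P. The limma log2 fold change was -2.28 (SE 0.59, 95% interval -3.55 to -1.01), with an adjusted p of 0.376 over all genes, above the threshold. Over the 14 alternatives it lay between -2.67 and -1.32, with adjusted p between 0.183 and 0.731. It was -2.67 without NP replicate 4 (adjusted p = 0.335). Aldoc had a mean of 0.0202 FPKM in NP and 0.0239 in P.

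Tpi1 (triosephosphate isomerase), which interconverts the products of aldolase and is not one of the 10 genes, was also lower in each P library than in any NP library. It had 293, 358, 209 and 206 FPKM in NP replicates 1 to 4 and 76.6, 48.2, 89.0 and 43.8 in P replicates 1 to 4. The log2 fold change was -2.06 (limma, SE 0.53, adjusted p = 0.376), and -1.10 after median centring.

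Gapdh (glyceraldehyde-3-phosphate dehydrogenase, chr6:125161853-125166467), often used as a reference transcript, was scarce in both datasets. It had 1.95, 3.42, 0.183 and 0.117 FPKM in NP replicates 1 to 4 and was listed at 0.472, 0, 0 and 0 in P replicates 1 to 4. NP replicates 1 and 2 were above every P library, and NP replicates 3 and 4 were not. The limma log2 fold change was -0.89 (SE 0.48, adjusted p = 0.535), and 0.071 after median centring. Gapdh stood between percentiles 13.3 and 45.5 of the tested genes in the NP libraries. The part of its genomic copies in this low level was not tested. Gapdhs, the sperm isozyme, was at a mean of 1.22 FPKM in NP and 0.968 in P.

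Pgk1 (phosphoglycerate kinase 1, chrX:106187100-106203699) carries out the first step that yields ATP. It was the only one of the 10 genes with a higher mean in P. Its values were 47.7, 75.5, 20.5 and 3.76 FPKM in NP replicates 1 to 4 and 116, 34.5, 84.7 and 19.6 FPKM in P replicates 1 to 4, and the datasets overlapped. The lowest value, in NP replicate 4, corresponds to 64 steps, and the highest, in P replicate 1, to 1225 steps. The log2 fold change was 1.07 (limma, SE 0.88, adjusted p = 0.659), and it was 0.27 without NP replicate 4 and 2.02 after median centring. Pgk2, the testis gene, was at 0 in every library.

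Within each library Pgk1 was set against Aldoa, a ratio that does not depend on the scaling between libraries and was chosen after the values had been seen. Pgk1 amounted to 4.45, 6.78, 1.93 and 1.03% of Aldoa in NP replicates 1 to 4 and to 97.1, 18.2, 25.0 and 18.4% in P replicates 1 to 4, with no overlap. The same pattern of every P library above every NP library relative to Aldoa was seen for 9.12% of the other genes tested. Tpi1 stayed at 19.7 to 56.4% of Aldoa in NP and 25.4 to 64.0% in P, and Gpi1 at 12.4 to 21.7% and 12.5 to 117%. Pkm ran from 14.3 to 46.4% of Aldoa in NP and from 21.3 to 269% in P. Thus the ranges of Tpi1, Gpi1 and Pkm relative to Aldoa overlapped between the datasets, and that of Pgk1 did not. Aldoa itself was lower in each P library than in any NP library, which by itself raises ratios to Aldoa in P.

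**Figure D5:**
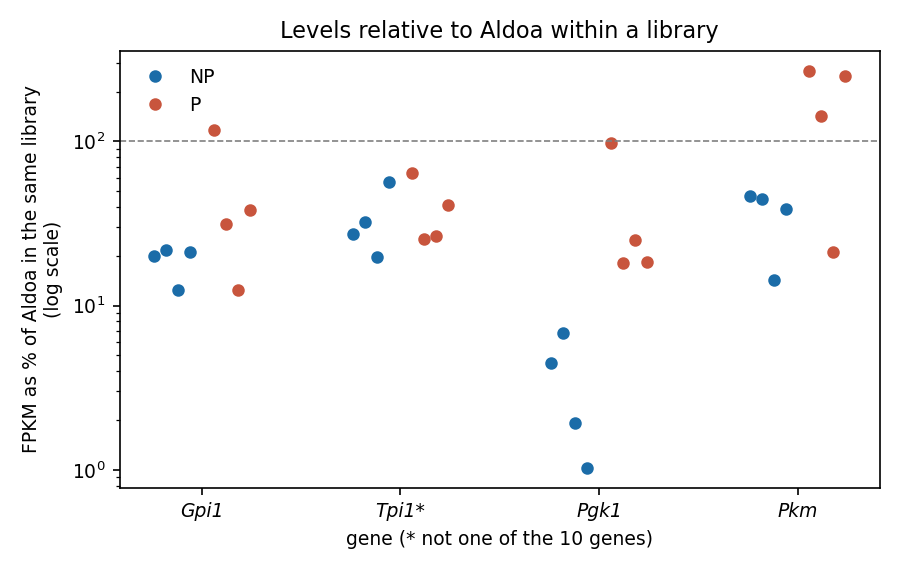
The vertical axis, on a log scale, gives the FPKM of Gpi1, Tpi1, Pgk1 and Pkm as a percentage of Aldoa in the same library, with the dashed line at 100%, and each point is 1 of the 4 NP (blue) or 4 P (red) libraries. All P points of Pgk1 (18.2 to 97.1%) lie above all its NP points (1.03 to 6.78%), and the points of the other genes overlap.

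Eno1 (enolase 1, chr4:150236721-150248879), which makes phosphoenolpyruvate, was low in both datasets. It had 6.29, 11.9, 2.22 and 2.08 FPKM in NP replicates 1 to 4 and 3.44, 3.13, 2.09 and 1.04 in P replicates 1 to 4, with overlap. These were 83 to 108 steps in NP and 15 to 87 in P, so the values did not rest on single reads. The log2 fold change was -0.75 (limma, SE 0.86, adjusted p = 0.726) and turned to 0.13 with quantile normalization and 0.21 with median centring. Gm5506, an Eno1 copy listed as a gene of its own, had a mean of 2.54 FPKM in NP and 0.734 in P, Eno2 had 0.0552 and 0.110 FPKM, and Eno3 was at 0. The step before, phosphoglycerate mutase, was also scarce, with Pgam1 at a mean of 0.885 FPKM in NP and 0.642 in P. Copies at 4 loci covered 97.7% of the Pgam1 transcript.

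Pkm (pyruvate kinase M, chr9:59656368-59679375) makes pyruvate and ATP in the last step. It had 498, 492, 151 and 141 FPKM in NP replicates 1 to 4 and 321, 269, 71.9 and 267 FPKM in P replicates 1 to 4. The NP libraries formed a high and a low pair, with 3 of the P libraries in between. The mean was 320 ± 202 FPKM in NP and 232 ± 110 in P (SD, n = 4 each). The limma log2 fold change was -0.41 (SE 0.67, adjusted p = 0.796), 0.082 without P replicate 3 and 0.55 after median centring. Pkm stood above the 91st percentile of the tested genes in each library, from 91.6 to 98.7. Pklr, the liver and red cell gene, was at 0 throughout.

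Laid along the pathway, the levels were uneven from step to step. Per step, with the measured isozymes summed and Aldoa alone taken for aldolase, the NP means were 3.05 FPKM for hexokinase, 166 for the isomerase, 22.1 for phosphofructokinase, 903 for aldolase and 267 for triosephosphate isomerase. They were 2.63 for glyceraldehyde-3-phosphate dehydrogenase, 36.9 for phosphoglycerate kinase, 0.885 for the mutase, 10.0 for enolase and 320 for pyruvate kinase. The P means in the same order were 3.08, 70.7, 7.51, 188 and 64.4 for the first 5 steps, and 1.09, 63.7, 1.09, 5.33 and 232 for the last 5. The aldolase step was the highest in NP and the pyruvate kinase step the highest in P. Near-identical genomic copies covered 49.7 to 97.7% of the transcripts of Gpi1, Tpi1, Gapdh, Pgk1, Pgam1, Eno1 and Pkm. How reads that match several loci were counted is not given, so the levels of these steps are uncertain. Levels per step also depend on the gene length used for each FPKM. The part of the copies and of the lengths in the uneven levels was not tested.

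The other genes of the pathway were read from lists of isozymes, regulators, gluconeogenic enzymes and enzymes of lactate and pyruvate use. Limma called 0 of the 30 genes tested. At an unadjusted p below 0.05, 4 of the 30 were higher in NP (Tpi1, Slc2a12, G6pc3 and Fbp2) and 1 was higher in P (Ldhb). Of all genes, 9.47% and 0.476% were. Of 9 other glycolytic isozymes tested, 7 had a negative and 2 a positive log2 fold change. Of 9 regulators and glucose carriers tested, 8 were negative and 1 positive. Over all genes tested, 71.4% were negative.

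Among the regulators, Bpgm (bisphosphoglycerate mutase) was the gene with the positive value. It had 192, 299, 252 and 692 FPKM in NP and 2199, 533, 252 and 1580 in P, with a log2 fold change of 1.38 (limma, SE 0.71, adjusted p = 0.532). NP replicate 4 was above 2 of the P libraries. Slc2a1, the GLUT1 glucose carrier, had a mean of 167 ± 151 FPKM in NP and 64.5 ± 65.1 in P (SD, n = 4 each; log2 fold change -1.40, limma adjusted p = 0.535). Slc2a12 had 27.1, 13.4, 8.30 and 14.7 FPKM in NP and 0.452, 1.03, 8.34 and 0 in P (log2 fold change -2.77, limma adjusted p = 0.412). Slc2a2, Slc2a3 and Slc2a4 were at 0 in all libraries. Hif1a, a transcription factor that acts on glycolytic genes under low oxygen, had 72.5 ± 51.1 and 52.6 ± 11.5 FPKM (SD, n = 4 each; log2 fold change -0.16), positive under both other scalings. Pfkfb1, which makes and breaks the activator of phosphofructokinase, had 5.93, 3.26, 4.51 and 10.6 FPKM in NP and 45.9, 0, 2.13 and 0 in P (log2 fold change -0.92, and 0.036 under median centring). It was -2.17 without P replicate 1 and -0.32 without P replicate 2 or 4.

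Of the list of gluconeogenic enzymes, 4 genes were tested (Fbp1, Fbp2, Pcx and G6pc3). Each had a negative log2 fold change, as did 71.4% of all genes. Fbp1 (fructose-bisphosphatase 1), which runs against phosphofructokinase, had 431, 553, 123 and 3275 FPKM in NP and 1220, 106, 155 and 77.7 in P (log2 fold change -1.48, limma adjusted p = 0.616). This value was -0.63 without NP replicate 4 and -2.35 without P replicate 1. In each library Fbp1 exceeded the sum of the 3 phosphofructokinase genes. Fbp2 had 1.42, 20.3, 7.15 and 59.6 FPKM in NP and 7.23, 0, 0 and 0 in P (log2 fold change -2.90, limma adjusted p = 0.440), and Pcx (pyruvate carboxylase) ranged from 9.65 to 27.7 FPKM in NP and from 0.292 to 36.4 in P (log2 fold change -1.56). Pck1, Pck2 and G6pc were at 0 throughout.

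Downstream of glycolysis, 4 of 8 tested genes of lactate and pyruvate use were positive and 4 negative, beside 71.4% negative over all genes. Ldhb, the lactate dehydrogenase subunit of the heart, had 489, 717, 630 and 2631 FPKM in NP and 7359, 1348, 1212 and 13461 in P. It was thus above Aldoa in each P library, and above it in NP replicate 4 alone within NP. Its log2 fold change was 2.03 (limma, SE 0.83, adjusted p = 0.455), and copies at 1 locus covered 98.5% of its transcript. Ldha, the muscle subunit, was at a mean of 0.554 FPKM in NP and 0.0943 in P. Of the pyruvate dehydrogenase genes, Pdhb had means of 68.5 and 130 FPKM, Pdha1 21.5 and 20.5, and Dlat 8.71 and 15.9 in NP and P, and each turned its sign under at least 1 alternative. Slc16a1, the MCT1 carrier of lactate and pyruvate, had 52.8 ± 23.6 FPKM in NP and 91.2 ± 52.0 in P (SD, n = 4 each).

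The mean log2(FPKM + 1) of the 10 enzymes was highest in NP replicate 2 at 4.78 and lowest in P replicate 4 at 3.03. This mean spanned 3.03 to 3.68 in P and 3.49 to 4.78 in NP, and the ranges overlapped. Among 4489 genes with a mean above 10 FPKM in both datasets, those whose log2 values followed this mean most closely over the 8 libraries were BC004004 (Pearson r = 0.965), Zfand2b (0.962) and Taf6l (0.953). This likeness is a description over libraries that share the split into NP and P.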

How the data were processed

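The 8 libraries were grouped by their titles into 4 NP and 4 P libraries. According to the study's methods and the submitters' processing notes, the authors used Trim Galore 0.4.1 for trimming, Hisat2 2.0.5 for mapping to the GRCm38 assembly, and Seqmonk for quantification. The deposited FPKM values are linear and scaled by the authors for gene length and library. Columns of the authors' mean FPKM differed from the means computed here by no more than 0.000575. The other deposited tables hold the authors' ratios, fold changes and p-values, made from the same libraries, and were not used. 

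P was compared with NP by limma 3.58.1 in R 4.3.3 (lmFit, then eBayes, trended) on log2(FPKM + 1). The 14292 genes whose NP or P mean was above 0.1 FPKM were tested, and p-values were adjusted over them by Benjamini-Hochberg. A fold change on this scale understates the change of low genes. The paper describes 4 independent biological replicates, and the fractions of both datasets were pooled from their gradients. NP and P libraries are thus not independent of each other. The main fit and the permutation test leave this out, and their p-values measure the spread between libraries. With the replicate number as a block, the adjusted p of Aldoa was 0.183 (limma) and 0 enzymes were called. Isozyme shares were compared by exact permutation with scipy 1.17.1. The scaling number of each library was recovered from FPKM steps with GENCODE exon lengths of GRCm38, matched for 22667 of 25574 genes, within a tolerance of 0.01 of a step. Steps could be given for Hk1, Pgk1 and Eno1 but not for the other 7 enzymes, whose values were not whole multiples with those lengths. Depth limits low values, and no molecular identifiers were used, so amplified reads do not count single molecules. Copies were found with blastn 2.17.0 on the GRCm38 chromosomes, against 1 representative transcript a gene. Coordinates of genes are those of the deposited table, and sequences come from the RefSeq copy of GRCm38. Scripts were tested on simulated data. Figures used matplotlib 3.10.9.

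The enzymes and the gene lists were chosen with earlier results of these data known. Named are all 10 enzymes, genes of the pathway lists whose NP or P mean was above 10 FPKM, and the 3 genes most correlated with the mean of the enzymes. Hk2, Hk3, Hkdc1, Aldoc, Gapdhs, Pgk2, Pgam1, Gm5506, Eno2, Eno3, Pklr, Ldha, G6pc3, carriers and gluconeogenic enzymes listed at 0, Pitrm1 and Senp1 fall outside this rule and were named after their values had been seen. Alternatives changed the pseudocount, the filter, the scaling, the replicate block and the libraries included.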

Additional observations from a re-analysis of the deposited data

Results flagged for a closer look

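For 36 sets of 4 values (in either dataset, the FPKM of the 10 enzymes and of Tpi1, Bpgm, Ldhb, Fbp1 and Slc2a1, and the 3 phosphofructokinase shares), the gap of the highest or lowest library to its neighbour was compared with the whole range by Dixon's criterion. Chance passes it in about 1 in 20 sets of normally distributed values, a rate that need not hold for linear FPKM with ties at 0. It was passed by 7 sets, of which 3 concern the glycolytic enzymes. Hk1 was at 0.322 FPKM in NP replicate 3 and at 0 in the other NP libraries. Aldoa was at 365 FPKM in NP replicate 4, far below the other NP libraries. Gapdh was at 0.472 FPKM in P replicate 1 and at 0 in the other P libraries. With the other libraries tied at 0, the Hk1 and Gapdh sets pass the criterion at any value, so their passing shows nothing. NP replicate 4 was the highest NP library for Ldhb, at 2631 FPKM, and for Fbp1, at 3275 FPKM. Fbp1 was highest in P replicate 1, at 1220 FPKM, and Slc2a1 in P replicate 3, at 162 FPKM. Thus 3 of the 7 concern NP replicate 4, and the cause was not tested.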

How the results depend on the processing

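Limma called 0 of the 9 or 10 enzymes tested under each alternative (Hk1 entered with no filter and without NP replicate 1, 2 or 4). The number of all genes called, 3 as reported, was 5 with a pseudocount of 0.1, 5 with a filter at a mean of 1 FPKM, and 0 with no filter, with quantile normalization and with median centring. Leaving out 1 library gave 0 to 5 calls: 0 on omitting any NP library or P replicate 3, and 5 on omitting P replicate 1. A replicate block (the number of the replicate as a factor) gave 1 call. With it, Gpi1 and Bpgm came below an unadjusted limma p of 0.05 (their adjusted p was 0.373 and 0.374). Aldoa, Tpi1, Slc2a12, Fbp2 and Ldhb were below it with and without the block. Ldhb, higher in P, had a limma p of 0.0025 with the block (adjusted p = 0.269). Same-numbered libraries deviated together with r of 0.0518 to 0.251 and differently numbered ones with -0.135 to 0.136. Every library but NP replicate 2, which matched P replicate 1 best, had its highest r with the same number. The labels do not say that a number marks 1 gradient, so the main fit took no pairs. Lower in P were 3 of 9 enzymes with median centring, beside 3857 of 14292 genes, and 7 to 9 enzymes when 1 library was left out. Below the median gene were 5 to 8 when 1 library was left out, the 5 (of 10 tested) without NP replicate 2. This count was 6 of 9 with a pseudocount of 0.1, with a filter at a mean of 1 FPKM and with quantile normalization. Signs turned with median centring for Eno1 (0.21), Gapdh (0.071), Pkm (0.55), Pfkl (0.52), Pfkm (0.10), Pfkfb1 (0.036), Hif1a (0.80) and Pdha1 (0.79), and with quantile normalization for Eno1 (0.13), Pfkl (0.32), Hif1a (0.043) and Pdha1 (0.32). With 1 library left out, log2 fold changes ranged from -0.72 to 0.082 for Pkm (positive without P replicate 3), from -0.99 to 0.43 for Pfkl (positive without NP replicate 4), from -0.69 to 0.26 for Hif1a (positive without NP replicate 3) and from -0.63 to 0.19 for Pdha1 (positive without NP replicate 3 or P replicate 4). They ranged from -0.57 to 1.58 for Pdhb (negative without NP replicate 3 or 4 or P replicate 1 or 4) and from -0.27 to 1.25 for Dlat (negative without P replicate 1). The isozyme share difference of P minus NP then ranged from -20.9 to 3.38 percentage points for Pfkp (positive without NP replicate 1) and from -14.6 to 1.74 for Pfkm (positive without NP replicate 3). It turned to 0.18 for Pfkm as a log2 ratio to the other isozymes. The causes were not tested. Hk1, Gapdh and Pfkm hold libraries at 0, and the part of depth in this was not tested.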
